A study of Mus musculus with 12 samples.

Results

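Gene expression in lung was compared with that in liver of virgin female NOD/SCID mice aged 8 to 10 weeks. The comparison used 6 of the study's 12 arrays, the 3 labelled virgin lung and the 3 labelled virgin liver, and no measured value took part in choosing them. Each array was a one-colour Affymetrix mouse array hybridised with RNA pooled from 2 mice, so the errors given here describe the spread between pools. The NOD/SCID strain joins the scid mutation to the NOD background and lacks mature T and B lymphocytes, in both organs alike. The other 6 arrays came from the same organs at day 16 of pregnancy. For the virgin difference they entered only the estimate of the spread of each gene and the choice of its probe set. All 18193 genes that had a probe set with a single gene symbol were tested. Whole organs were measured, and in such samples fewer cells of a type and less RNA per cell cannot be told apart.

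The lung exchanges gas across a barrier of flat alveolar type 1 cells and capillary endothelium. Alveolar type 2 cells secrete the surfactant that keeps the alveoli open, and club and ciliated cells line and clear the airways. The liver consists mainly of hepatocytes, which secrete most plasma proteins, release glucose, make urea and bile acids and oxidise foreign compounds. Its blood runs through sinusoids lined by scavenging endothelium and Kupffer macrophages, with vitamin A storing stellate cells behind them.

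Values are log2 units of the deposited normalized expression, and a difference is virgin lung minus virgin liver. Correlations between arrays were 0.9953 to 0.9961 within lung, 0.9937 to 0.9942 within liver and 0.8232 to 0.828 between the organs. The median SD of a gene was 0.11 in lung and 0.127 in liver (n = 3). The poly-A spike-in probe sets, which follow the labelling reaction, had means of 11.85 to 11.97 on 5 arrays and 4.95 on the array of virgin liver pool 3. The hybridisation controls had a mean of 9.04 ± 0.087 on lung and 9.61 ± 0.059 on liver arrays (SD, n = 3). Their exact permutation test, two-sided, gave p = 0.1, which is as low as 3 against 3 arrays allow, and 0.4 after Benjamini-Hochberg adjustment over 4 controls. The difference between 3′ and 5′ probe sets of Gapdh, a sign of RNA integrity, was 0.48 in lung and 0.46 in liver (exact permutation p = 0.8). The part of the hybridisation controls in single genes was not tested. Without the arrays of pool 3 of virgin and of pregnant liver the number of genes at least 8-fold apart was 690 higher in lung and 580 higher in liver, against 671 and 574 with them.

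Most genes differed between the organs. Of the 18193 genes, 12501 (68.7%) passed a Benjamini-Hochberg adjusted p of 0.05 in limma, 6240 higher in lung (34.3%) and 6261 lower (34.4%). That split rests on the scaling of the arrays. Centring each array on its median gave 5507 higher and 8216 lower, and centring on the genes of ribosome, proteasome and respiratory chain gave 8424 higher and 3105 lower. The median difference over all genes was -0.07 as deposited and became -0.21 and 0.23 under these scalings, so the direction of a single difference under about 0.3 rests on the scaling. A second rule, which also asked for at least 8-fold (3 log2 units), was met by 1245 genes (6.84%), 671 of them higher in lung (3.69%) and 574 higher in liver (3.16%). Averaging the probe sets of each gene, in place of 1 chosen set, made these counts 435 and 507, so which organ has more such genes rests on that choice. The groups of arrays did not overlap for 13316 genes (73.2%), so counts of called members are read here against this broad background and mostly by the 8-fold rule.

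The 2 organs differed in how large their differences were. Liver held the extreme values: 93 genes were at least 8 log2 units higher in liver and 11 in lung, and between 5 and 8 log2 units the counts were 202 and 106. Between 2-fold and 8-fold the order was turned, with 1269 genes higher in liver and 2526 in lung. In 708 of the 1245 genes with an 8-fold difference the lower organ lay below 5.04, the median level of probe sets with 1 symbol. Nothing in the files shows that signal under this level is above background. Such a fold is a ratio of 2 array values rather than of transcript numbers. Genes that were dim in both organs leaned slightly toward liver: 5933 genes were below that level in both, with a median difference of -0.20, and 2078 of them were called lower and 596 higher in lung. The 12260 brighter genes had a median of 0.16.

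**Figure D1:**
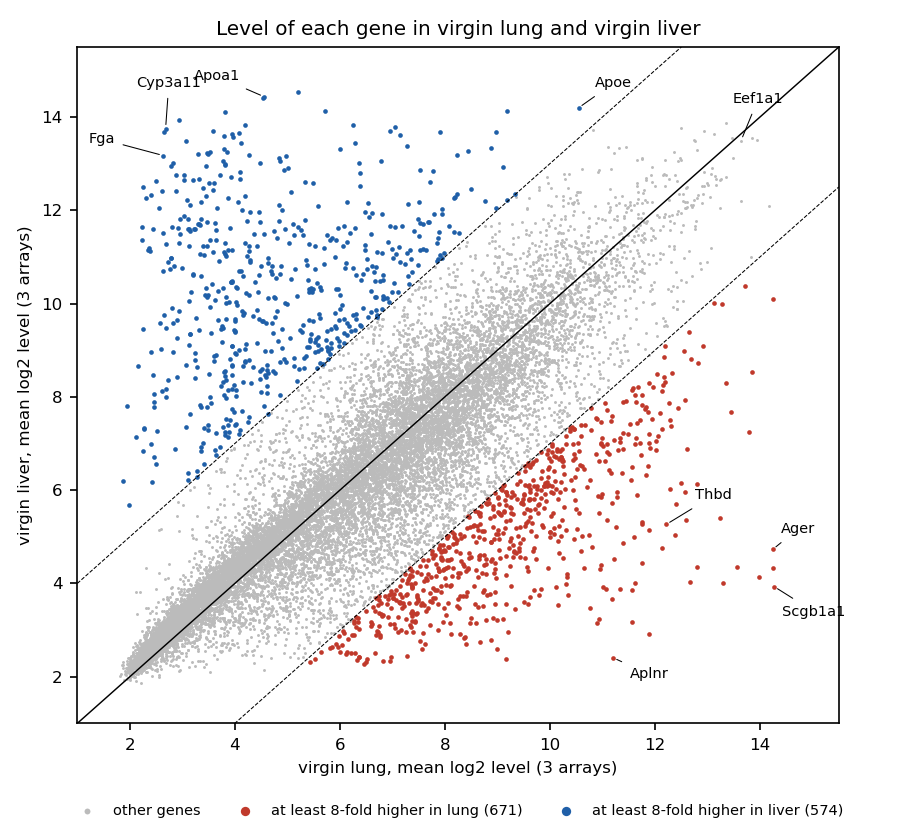
Mean log2 level of each of the 18193 genes in virgin lung (horizontal axis) and virgin liver (vertical axis), 3 arrays per organ. Each point is 1 gene, coloured points are the 671 genes at least 8-fold higher in lung and the 574 at least 8-fold higher in liver, the diagonal marks equal levels and the broken lines an 8-fold difference. The liver genes reach farther from the diagonal than the lung genes.

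The largest lung differences belonged to secreted proteins of airway and alveolus. Scgb1a1, the secretoglobin of club cells, had values of 14.26, 14.30 and 14.23 in lung and 4.09, 3.78 and 3.93 in liver, a difference of 10.33 ± 0.20 (SE, 3 arrays per organ, adjusted p = 6.1e-15 in limma). The 3 lung pools were high and the 3 liver pools low, without overlap. Sftpc, the hydrophobic surfactant protein, read 14.30, 14.24 and 14.22 in lung and 4.46, 4.02 and 4.49 in liver. Sftpa1, a collectin of surfactant that binds microbes, differed by 9.85 and Sftpd, its relative, by 7.82. Ager, the receptor that marks alveolar type 1 cells, followed with 9.51 (730-fold), and its second probe set gave 97.5-fold. Scgb3a2 and the carbonyl reductase Cbr2, both of club cells, had differences of 9.29 and 9.21. Cxcl15, a chemokine of lung epithelium, had 8.44 and Npnt, a matrix ligand of integrins, 8.40. The other probe sets of Npnt had 0.99, 1.76, 2.28 and 7.21. The remaining leaders were of other cells: Aplnr, the apelin receptor of endothelium (8.79 on 1 probe set and 1.53 on the other), Chil3, a chitinase-like protein of alveolar macrophages (8.63), and Ear3, an eosinophil-associated ribonuclease (8.96) whose probe set shares sequence with other members of its family.

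Rank by rank the 12 largest liver differences were larger in size than those of lung, and 5 of them exceeded that of Scgb1a1. Cyp3a11, a drug oxidising cytochrome P450, read 2.86, 2.56 and 2.63 in lung and 13.74, 13.70 and 13.81 in liver, a difference of -11.07 ± 0.16 (SE, limma adjusted p = 3.46e-16). Its neighbour Cyp3a25 differed by -10.26. The fibrinogen chains Fgb and Fga, the substance of the clot, had -11.03 and -10.53. Apoc3, an apolipoprotein that slows the clearance of triglyceride, was 2050-fold higher in liver, and Apob, the scaffold of very low density lipoprotein, had -10.15. Protease inhibitors formed the largest group: Serpinc1 (antithrombin, -10.42), Serpina1c (an antitrypsin, -10.29), Pzp (-10.12) and Mug1 (-9.97), both of the macroglobulin family. Kng1, the kininogen from which bradykinin is cut, had -10.20 and the sulfotransferase Sult3a1 -10.13. Lung levels of all 12 lay below 4, so each fold is taken against a dim probe set. Over the 24 leading genes of the 2 organs there were 11 further probe sets, of which 1 (of Sftpc) had the opposite sign and 5 were at least 8-fold apart in the same direction. Among all genes with an 8-fold difference 600 had further probe sets, 1033 in number. Of these sets 343 were at least 8-fold apart in the same direction, 149 had the opposite sign and 43 were called the opposite way.

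The promoters of some of these genes are printed because liver genes held a short string of letters upstream of their start sites more often than other genes did. The sequences are from RefSeq on GRCm38.p6, on the strand of the gene, and end at the base before the annotated start. Of the 12 leading liver genes 10 had a promoter in the table, and 5 held these letters within 100 bases of the start (Fgb, Fga, Serpina1c, Mug1 and Pzp), of which 4 are shown. In the liver genes the capitals mark GTTAAT or its reverse complement ATTAAC, a core of sites of the hepatocyte factor HNF1. Fgb lies on the minus strand at chr3:83049864-83049963, Fga on the plus strand at chr3:83026053-83026152, Serpina1c on the minus strand at chr12:103904951-103905050 and Mug1 on the plus strand at chr6:121838441-121838540.
Fgb: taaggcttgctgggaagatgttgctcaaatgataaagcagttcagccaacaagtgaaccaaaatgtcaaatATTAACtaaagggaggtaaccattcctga
Fga: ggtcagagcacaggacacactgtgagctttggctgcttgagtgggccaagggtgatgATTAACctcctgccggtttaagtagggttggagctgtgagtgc
Serpina1c: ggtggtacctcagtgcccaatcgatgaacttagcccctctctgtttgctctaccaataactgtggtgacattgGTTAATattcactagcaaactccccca
Mug1: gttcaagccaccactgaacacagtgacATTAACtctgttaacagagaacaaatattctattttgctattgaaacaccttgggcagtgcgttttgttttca
The core lay at -29 to -24 in Fgb, -43 to -38 in Fga, -27 to -22 in Serpina1c and -73 to -68 in Mug1, counted back from the start site. In the 2 lung promoters the capitals mark TATAAA, the TATA box core, and in Sftpa1 also CTCAAG, a core letter string of sites of the lung factor NKX2-1. Sftpa1 is on the plus strand at chr14:41131588-41131787 and Cxcl15 on the plus strand at chr5:90794434-90794533.
Sftpa1: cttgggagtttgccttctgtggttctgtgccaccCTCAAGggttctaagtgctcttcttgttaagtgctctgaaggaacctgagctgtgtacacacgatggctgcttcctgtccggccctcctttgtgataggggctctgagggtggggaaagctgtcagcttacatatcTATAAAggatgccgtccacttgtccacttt
Cxcl15: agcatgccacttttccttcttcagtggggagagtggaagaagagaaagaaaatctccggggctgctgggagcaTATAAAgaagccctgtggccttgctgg
CTCAAG in Sftpa1 lay at -166 to -161, and TATAAA at -30 to -25 in Sftpa1 and at -27 to -22 in Cxcl15. Fga holds the reverse complement of CTCAAG too, at -65 to -60, in lower case above. The other 4 leading lung genes with a promoter in the table (Ager, Cbr2, Chil3 and Npnt) held neither string before the start.

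Liver genes as a class had promoters of another make-up. The RefSeq table gave a promoter of 300 bases (250 before and 50 after the start) for 467 of the 574 genes at least 8-fold higher in liver and for 1925 of the 2345 genes alike in both organs and above the dim level. The HNF1 core, searched on both strands, was in 14.1% of the liver promoters, 3.64% of the alike ones and 7.2% of all 27025 promoters of the table. These 27025 include promoters of genes that were not measured here, and in the 14452 promoters of measured genes the share was 5.06%. Among the 247 promoters of genes at least 32-fold higher in liver the share was 18.2%. The same letters in reverse order (TAATTG), which have the same base composition, were in 8.99% of the liver promoters and 4.31% of the alike ones. They were in 8.15% of all promoters and in 5.65% of those of measured genes, so they too were more frequent in liver promoters than in measured genes. HNF1 cores gathered close to the start: per 100 liver promoters 5.57 began between -100 and -51 and 3.85 between -50 and -1, against 2.14 in the 50 bases farthest upstream. Over all promoters the values were 1.54, 1.16 and 1.6. Within promoters of 45 to 55% GC the share was 16.3% in liver genes (184 promoters), 8.33% in alike ones and 7.68% in all (9240). At 35 to 45% GC the shares were 22.6% in liver genes (84 promoters), 16.2% in alike ones and 13.8% in all. At 55 to 65% GC they were 6.43% (140 promoters), 2.63% and 3.5%.

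Other features differed too, some more and some less frequent in liver promoters. The letters CAAAGTCCA, a site of the liver receptor HNF4, were in 2.78% of liver promoters, 0.364% of the alike ones and 0.477% of all, and TGTTTAC, a FOXA core, in 6%, 1.82% and 3.55%. TATAAA was in 17.6% of liver promoters, 6.44% of the alike ones and 14.2% of all. CCGGAA, the ETS core common in housekeeping promoters, was in 8.78%, 33.9% and 15.2%. CTCAAG was in 12.8% of liver promoters, 12.6% of the alike ones and 16.2% of all, and the C/EBP palindrome TTGCGCAA in 0.428%, 0.312% and 0.185%. The CpG content, observed over expected, was at least 0.6 in 22.1% of liver promoters, 79.8% of the alike ones and 36.5% of all, with medians of 0.296, 0.81 and 0.389. In the 14452 promoters of measured genes CpG content of at least 0.6 was in 57%, TATAAA in 9.87% and CCGGAA in 22%. There CAAAGTCCA was in 0.464%, TGTTTAC in 2.82%, CTCAAG in 14.6% and TTGCGCAA in 0.228%. Only 74.5% of the genes at least 8-fold higher in lung had a promoter in the table, fewer than the 80% asked for, so lung promoters are not set against these. A match is a match of letters and not a shown binding site.

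**Figure D2:**
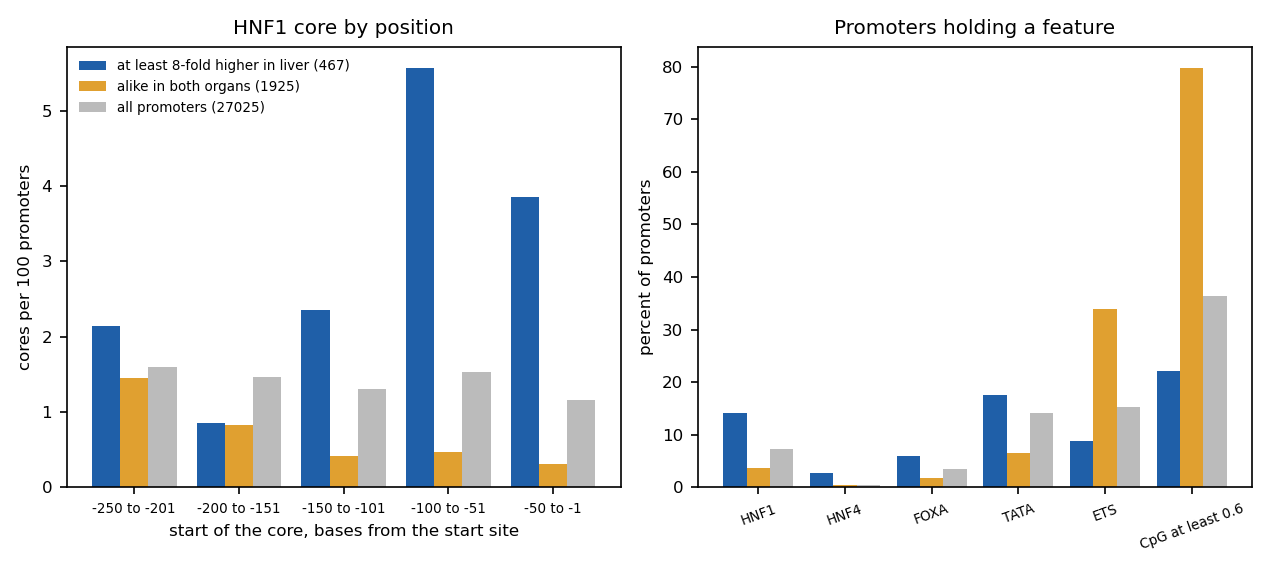
Left, start positions of the HNF1 core before the start site in bins of 50 bases, as cores per 100 promoters, for genes at least 8-fold higher in liver (467 promoters), genes alike in both organs (1925) and all promoters of the table (27025). Right, percent of promoters holding each feature in the same 3 classes. The liver class stands highest in the bins from -100 to -1, at 5.57 and 3.85 per 100 promoters, and lowest for CpG content.

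Markers of alveolar epithelium were higher in lung with few exceptions. Of 15 measured alveolar type 2 markers 14 were higher in lung and 13 at least 8-fold (median difference 5.71). Sftpb had 7.22, the phosphate transporter Slc34a2 6.71 and the aspartic protease Napsa 6.47. The exceptions were bright in both organs: Abca3, the lipid pump of lamellar bodies, differed by 0.59, and the protease Ctsh had levels of 11.41 and 11.57 and was not called. All 18 alveolar type 1 markers were higher in lung, 17 of them at least 8-fold. Cldn18, a claudin of alveolar tight junctions, had values of 11.70, 11.48 and 11.52 in lung against 4.01, 3.45 and 4.15 in liver, and the chloride channel family gene Clic5, the water channel Aqp5 and the caveolar coat gene Cav1 had differences of 7.44, 6.68 and 6.66. The growth factor Vegfa had the smallest difference of that list, 1.82.

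Airway markers were less uniform. Of 17 secretory markers 13 were higher in lung and 9 at least 8-fold, and 4 were not called (the mucins Muc5b and Muc5ac, Agr2, a folding enzyme of mucins, and the keratin Krt15). Bpifa1, a secreted protein of the upper airway, differed widely between pools, with 10.79, 6.89 and 6.27 in lung, all above the 3.35, 3.57 and 3.52 of liver. Scgb3a1 varied in the same way (12.10, 11.31 and 10.79), while Scgb1a1 did not. Cyp2f2, the cytochrome P450 of club cells, was high in both organs, with 13.24 ± 0.0605 in lung and 12.64 ± 0.0368 in liver (SD, n = 3), a difference of 0.59 (limma adjusted p = 3.65e-05). Of 27 ciliated cell genes 22 were higher in lung, 5 of them at least 8-fold, led by the dynein gene Dynlrb2 (6.19), Tppp3 (6.03) and the radial spoke gene Rsph1 (4.47). Foxj1, the master regulator of motile cilia, read 4.99, 5.36 and 5.22 in lung and 3.87, 4.18 and 3.94 in liver. No basal or neuroendocrine marker was 8-fold apart, and 7 of the 8 measured were dim in both organs.

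**Figure D3:**
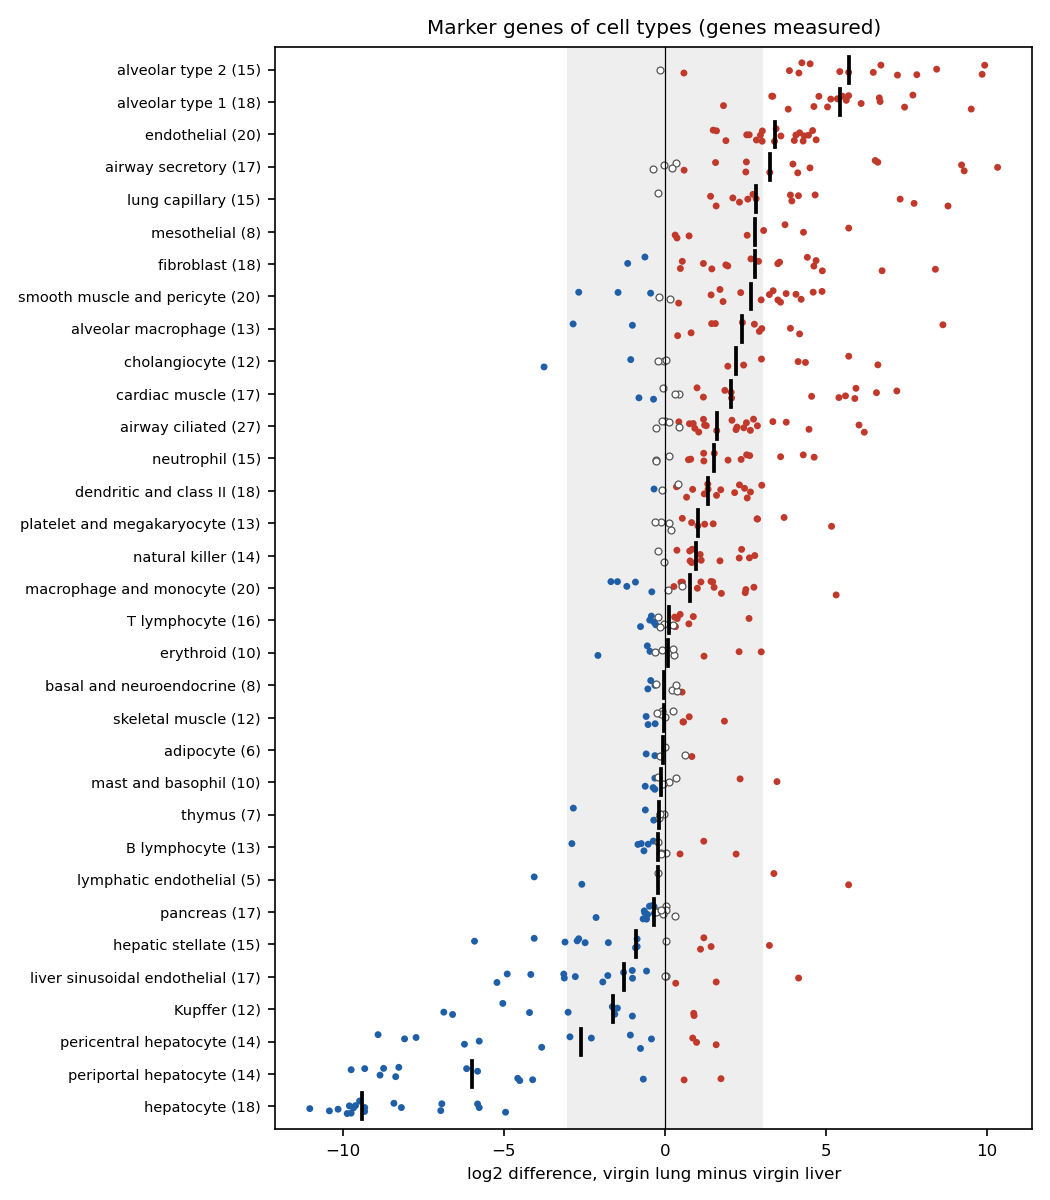
Log2 difference, virgin lung minus virgin liver, of every measured marker gene of 33 cell type lists (1 point per gene, 3 arrays per organ). The bar marks the median of a list, filled points are genes with an adjusted p under 0.05 and hollow ones were not called. The shaded band is a difference under 8-fold. The hepatocyte list lies at a median of -9.41 and the alveolar lists at 5.71 and 5.44.

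Vascular genes split by the type of vessel. All 20 general endothelial markers were higher in lung, 13 of them at least 8-fold (median 3.43), among them the tight junction gene Cldn5 (4.46), the von Willebrand factor gene Vwf (4.59) and the adhesion gene Pecam1 (4.02). Of 15 measured markers of lung capillaries 14 were higher in lung and 7 at least 8-fold (median 2.83). The genes higher in lung included Aplnr (8.79), the capillary factor Tmem100 (7.30), the hypoxia factor Epas1 (2.83) and Hpgd (1.42). The nitric oxide synthase gene Nos3 was not called (5.55 and 5.76). Sinusoidal markers ran the other way: 12 of 17 were lower in lung and 5 at least 8-fold. The lectin gene Clec4g read 5.50, 5.65 and 5.41 in lung and 10.72, 10.76 and 10.74 in liver, and the scavenger receptor Stab2 and the nuclease Dnase1l3 had differences of -4.90 and -4.17. Lyve1, a hyaluronan receptor on sinusoids and on lymphatics, was the only one at least 8-fold higher in lung (4.15), with 11.15, 11.26 and 11.25 in lung against 7.02, 7.03 and 7.16 in liver. Of 5 measured lymphatic markers 2 were higher in lung, Pdpn (5.70), which also marks alveolar type 1 cells, and Mmrn1 (3.38), and Flt4 was not called (-0.21), whereas Prox1 (-2.58), a lymphatic factor that hepatocytes also make, and Reln (-4.06), a secreted protein of stellate cells too, were higher in liver.

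Mesenchymal genes were mostly higher in lung. Of 18 fibroblast markers 16 were higher and 8 at least 8-fold (median 2.79), among them Ogn, a small proteoglycan (6.74), and the integrin Itga8 (4.89). The proteoglycans Dcn and Lum were higher in liver by 1.54-fold and 2.23-fold. Of 20 genes of smooth muscle and pericytes 15 were higher in lung, with the actins Acta2 (4.88) and Actg2 (4.60) in front, and Rgs5 (-2.68), Abcc9 (-1.46) and Myocd (-0.45) were lower. Stellate cell genes leaned to liver, 10 of 15 lower in lung: the collectin Colec11 had -5.92, the growth factor relative Angptl6 -3.11 and the transcription factor Hand2 -2.73. Lrat, which stores retinol as its ester, was higher in lung (9.49, 9.39 and 9.51) than in liver (8.46, 8.38 and 8.24). All 8 mesothelial genes were higher in lung, from the keratin Krt19 (5.71) to Upk1b (0.32).

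The elastic fibre of lung was one of the clearest matrix differences. Of 17 genes 16 were higher in lung and 7 at least 8-fold (median 2.95). Mfap4, a microfibril glycoprotein, had 12.26, 12.31 and 12.56 in lung and 4.82, 5.07 and 5.23 in liver, a difference of 7.34 ± 0.14 (SE, limma adjusted p = 3.85e-15). The cross-linking enzymes Loxl1 and Lox followed with 4.63 and 3.92, and elastin itself, Eln, had 2.56. Among 42 collagens 21 were higher and 12 lower in lung, and 13 were at least 8-fold higher. The 3 chains of the mature basement membrane network, Col4a3, Col4a4 and Col4a5, had 4.63, 5.63 and 4.61. Col18a1, the source of endostatin, was the only collagen at least 8-fold higher in liver (-3.13). Of 29 semaphorins and plexins, guidance ligands and receptors of axons and vessels, 5 were at least 8-fold higher in lung, led by Sema3c (7.32), Sema3e (6.09) and Sema3g (5.91), and 1 in liver, Sema4g (-5.67).

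Macrophage genes separated the resident cells of each organ. Of 12 Kupffer cell genes 10 were lower in lung. Vsig4, a complement receptor, read 3.55, 3.56 and 3.26 in lung and 10.23, 10.41 and 10.34 in liver, Cd5l, a secreted scavenger protein, had a difference of -6.60 and the lectin Clec4f one of -5.04. The iron exporter Slc40a1 had -4.21. Of 13 alveolar macrophage genes 11 were higher in lung, among them the sialic acid receptor Siglecf (4.18) and Plet1 (3.90). Marco, a scavenger receptor on both lists, was higher in liver (-1.01). Genes shared by macrophages and monocytes lay closer: Csf1r, the growth factor receptor of the lineage, was 11.24 in lung and 10.74 in liver, the lysozyme gene Lyz2 was higher in lung (5.32) and the complement genes C1qa, C1qb and C1qc were higher in liver (-1.19, -1.48 and -1.68). Of 18 genes of dendritic cells and class II antigen presentation 15 were higher in lung, 1 of them at least 8-fold, and 1 was lower, with H2-Aa at 2.66 and Cd74 at 2.55.

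Neutrophil, natural killer cell and platelet genes were mostly higher in lung, and the other blood cell lists were mixed or leaned to liver. Of 15 neutrophil genes 12 were higher and 0 lower, with S100a8 at 11.73, 11.87 and 11.28 in lung against 6.93, 7.14 and 6.90 in liver. Of 14 natural killer cell genes 12 were higher, with the granzyme Gzma at 2.79. Of 13 platelet genes 9 were higher, with the chemokine Ppbp at 5.17 and Pf4 at 2.88. Of the T cell markers 9 of 16 were dim in both organs, 7 were called higher and 5 lower in lung, and the receptor chains Cd3e, Cd3d and Cd3g had levels between 3.37 and 5.70. Of 13 B cell genes 3 were higher and 6 lower, Ms4a1 read 3.11 and 3.48, and Ighm, the heavy chain of immunoglobulin M, read 7.45, 7.57 and 7.61 in lung and 10.28, 10.54 and 10.49 in liver. That probe set stood apart in the B cell list, with a difference of -2.89 where the list had a median of -0.21. Dntt, the terminal transferase of lymphocyte precursors, did so in the thymus list (4.22, 4.47 and 4.61 in lung, 7.22, 7.28 and 7.34 in liver), in which 3 of 7 genes were lower, 0 higher and 5 dim in both. Of 10 mast cell and basophil genes 2 were higher and 4 lower, and of 10 erythroid genes 3 were higher and 3 lower. Klf1, the erythroid factor, was higher in liver (-2.08) while Alas2 and Slc4a1, of haem synthesis and the red cell membrane, were higher in lung (2.99 and 2.30).

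Lung also held transcripts of heart muscle. In the mouse a sleeve of cardiac muscle surrounds the pulmonary veins. Of 17 cardiac genes 12 were higher in lung and 7 at least 8-fold. The cardiac actin Actc1 had 11.12, 11.18 and 10.93 in the 3 lung pools and 4.22, 3.69 and 3.71 in liver, a difference of 7.20 ± 0.20 (SE, limma adjusted p = 2.35e-13). The atrial light chains Myl7 and Myl4 had 6.57 and 5.90, the myosin Myh6 5.93 and the troponins Tnnt2 and Tnni3 5.61 and 5.40. Tnnt2 had -0.22 when probe sets that can match several transcripts, by the suffix of their identifier, were left out. Actc1 had an SD of 0.131 over the 3 lung pools, and the mean of the cardiac list ran from 6.82 to 7.16 over the lung arrays. Myl2, the ventricular light chain, read 2.73, 2.63 and 2.93 in lung, and Nppa, the atrial peptide, 4.32, 3.36 and 3.12, both dim. Whether tissue of the heart itself was taken with the lung was not tested. Of 12 skeletal muscle genes none was 8-fold apart and 9 were dim in both organs. Of 17 pancreas genes 10 were lower in lung, 12 were dim in both and the largest difference was that of Cela2a (-2.14), and of 6 adipocyte genes 5 were dim in both.

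Markers of bile duct cells did not follow the liver. Of 12 measured 7 were higher in lung and 4 at least 8-fold, among them the keratin Krt7 (6.61) and the adhesion gene Epcam (4.36), which airway and alveolar epithelium also express. Pkhd1, the cystic disease gene of bile ducts, was higher in liver (2.27, 2.40 and 2.61 in lung, 5.75, 6.39 and 6.41 in liver), and Sox9 was lower in lung (-1.06).

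All 18 measured hepatocyte genes were at least 8-fold higher in liver. Alb, albumin, read 5.44, 5.18 and 5.0 in lung and 14.52, 14.55 and 14.53 in liver. The smallest difference was that of Serpina1b (-4.95), whose probe set read 9.02, 9.03 and 9.48 in lung. Genes of hepatocytes near the portal vein and near the central vein were higher in liver in most cases, 12 of 14 and 11 of 14. Among the central ones Gulo, of vitamin C synthesis, had -7.73 and Rgn, a calcium-binding lactonase, -8.91, while Glul, the glutamine synthetase that lung also makes, had -1.08. Ahr, Axin2 and Tbx3 of that list were higher in lung (0.98, 0.86 and 1.59), as were Cdh1 and Cyp2f2 of the portal list.

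Blood clotting genes were divided between the organs. Of 34 genes 25 were lower in lung, 21 of them at least 8-fold, and 9 were higher. Among the genes higher in liver prothrombin F2 had -9.34, plasminogen Plg -9.52 and the remaining fibrinogen chain Fgg -9.59. Several genes higher in lung encode proteins of the vessel wall. Thbd, the thrombin receptor that turns on protein C, read 12.21, 12.21 and 12.22 in lung and 5.38, 5.23 and 5.19 in liver, a difference of 6.95 ± 0.09 (SE, limma adjusted p = 1.45e-16). Vwf, the tissue plasminogen activator Plat (3.38), tissue factor F3 (2.94) and the protein C receptor Procr (2.68) were also higher in lung, as was F13a1, the A chain of factor XIII (4.65), whose partner F13b was higher in liver (-9.13). The circulating anticoagulant Pros1 (protein S, 0.42) and the inhibitor Tfpi (1.17) were higher in lung too. F8, which sinusoidal endothelium makes, was lower in lung (-2.79).

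Complement genes were lower in lung in 22 of 27 cases, 12 of them at least 8-fold. The pore proteins C9, C8a and C8g had -9.07, -8.09 and -8.11, and the mannose-binding lectin Mbl2 -9.73. C6, of the same pore, was higher in lung (8.19, 8.08 and 8.19) than in liver (7.23, 7.26 and 7.31). The receptor C3ar1 (0.14) and the surface inhibitor Cd55 (0.22) were not called.

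**Figure D4:**
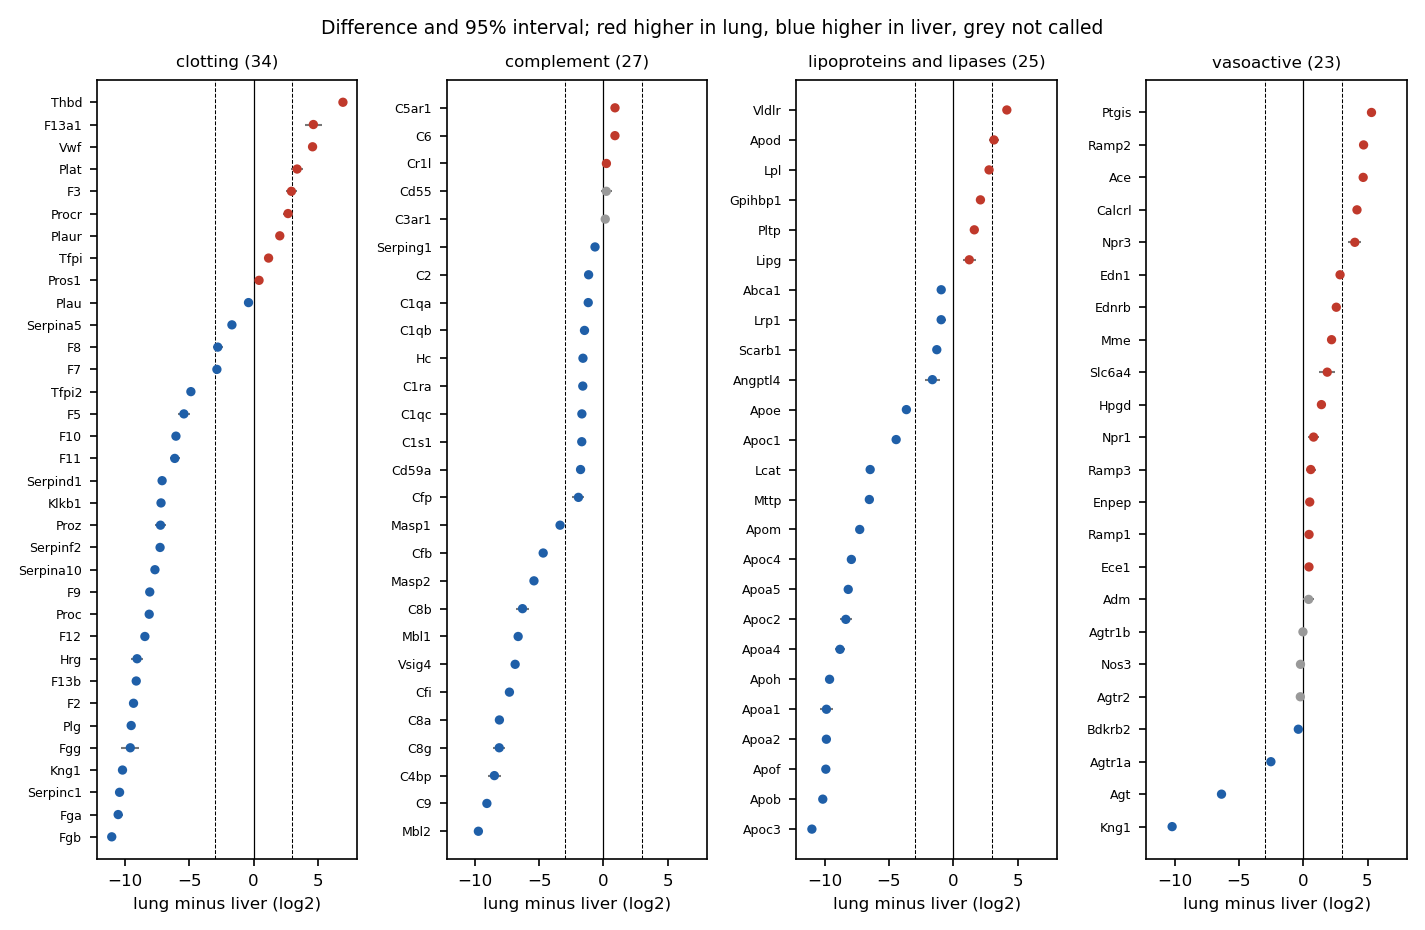
Log2 difference, virgin lung minus virgin liver, of each measured gene of clotting (34), complement (27), lipoproteins and lipases (25) and vasoactive peptides (23), sorted within each panel. Points are fitted differences, bars are 95% intervals of the limma fit (3 arrays per organ), and the broken lines mark 8-fold. Thbd stands at 6.95 and Fgb at -11.03 in the clotting panel.

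Lipoprotein genes divided in a like manner. Of 25 genes 19 were lower in lung, 15 at least 8-fold, and 6 were higher. The apolipoproteins Apoa1, Apoa2 and Apoh had -9.87, -9.88 and -9.63, and Apoe, which macrophages also secrete, had a smaller -3.65 with a lung level of 10.54. Lung was higher for the capillary side of triglyceride uptake: the lipase Lpl (2.78), its anchor Gpihbp1 (2.11) and the receptor Vldlr (4.16). Among 23 vasoactive genes 15 were higher in lung, with the prostacyclin synthase Ptgis at 5.31. In the angiotensin path the precursor Agt was higher in liver (-6.36), the converting enzyme Ace in lung (9.31, 9.41 and 9.53 against 4.86, 4.81 and 4.60, a difference of 4.66 ± 0.11, SE, limma adjusted p = 6.55e-14) and the receptor Agtr1a in liver (-2.51).

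The metabolic lists of liver were nearly uniform in direction. All 32 genes of urea synthesis and amino acid breakdown were lower in lung, 28 of them at least 8-fold (median -5.64). Cps1, which fixes ammonia for urea, read 3.14, 3.41 and 3.88 in lung and 13.23, 13.16 and 13.28 in liver, the methyltransferase Bhmt had -9.71 and Hpd, of tyrosine breakdown, -9.61. Oat, of ornithine breakdown, had the smallest difference, -0.42. Ass1 was dim in both organs (2.81 and 3.49) on its only probe set. All 24 genes of bile acid synthesis and transport were lower in lung, 21 at least 8-fold (median -5.49), among them the uptake carrier Slc10a1 (-9.61), the conjugating enzyme Slc27a5 (-9.17) and Cyp7a1, the first enzyme of the path (-6.23). The receptor Fgfr4 had the smallest difference, -0.31, near the shift between scalings. Of 16 genes of glucose release and glycogen 15 were lower in lung. Pck1, the entry enzyme of gluconeogenesis, had -8.36, and Gyg, glycogenin, was the exception at 3.75.

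Enzymes of foreign compounds followed, with lung exceptions. Of 54 cytochromes P450 of families 1 to 4, the drug and lipid oxidases, 42 were lower in lung, 28 of them at least 8-fold, and 8 were higher. Cyp2d10, Cyp2d26 and Cyp2c29 had -9.87, -9.81 and -9.39. The lung ones were led by Cyp4b1 (12.32, 12.20 and 12.27 in lung, 8.02, 7.78 and 7.83 in liver), an activator of furans, and by Cyp2s1 (3.14) and Cyp2b10 (2.66). All 10 UDP-glucuronosyltransferases were lower in lung, 9 at least 8-fold (median -8.39), and of 13 sulfotransferases 10 were. Glutathione transferases differed less: 18 of 23 were lower, 6 at least 8-fold, and Gsta4 was alike at 10.20 and 10.19. Members of these families share sequence, and signal can pass between their probe sets.

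Where an enzymatic step has several forms, 17 of 22 sets with at least 2 measured members had 1 or more called each way. Over all genes 34.3% were called higher and 34.4% lower in lung, so a set of several genes can often hold calls both ways. The share among sets of unrelated genes was not computed, and the count is not read as a trait of enzyme forms. Pyruvate kinase, the last step of glycolysis, had its liver form Pklr at 4.39, 4.39 and 4.48 in lung and 9.93, 9.82 and 9.82 in liver, and its other form Pkm at 9.32, 9.27 and 9.14 in lung and 6.35, 6.63 and 6.51 in liver. The differences were -5.43 ± 0.13 and 2.74 ± 0.14 (SE, limma adjusted p = 4.5e-14 and 2.27e-10). Arginase had Arg1 at -8.27 and Arg2 at 2.73, glycogen synthase Gys2 at -6.35 and Gys1 at 0.84, and glycogen phosphorylase Pygl at -3.36 and Pygb at 2.23. Fructose bisphosphatase had Fbp1 at -6.64 and Fbp2 at 1.40. Glucose-6-phosphatase had G6pc at -5.82 and G6pc3 at 0.71. Glucose entry had the transporter Slc2a2 at -8.71 and Slc2a3 at 4.12, but with such suffixed probe sets left out Slc2a3 had -0.28, and Slc2a1 went from 0.27 to -0.36. The lactate dehydrogenase subunits were Ldha at -1.27 and Ldhb at 2.74. Fatty acid binding had Fabp1 and Fabp2 at -7.57 and -8.19 and Fabp3 at 4.11. Methionine adenosyltransferase had Mat1a at -7.33 and Mat2b, a regulatory subunit, at 0.92. The carnitine palmitoyltransferase 1 genes had Cpt1a at -1.45 and Cpt1c at 1.22, and Cpt1b was not measured. The hexokinases Hk1 and Hk2 were higher in lung (2.46 and 1.34) and Hk3 lower (-0.57). The other 5 sets had no calls both ways. Acetyl-CoA carboxylase had Acaca and Acacb both lower in lung (-1.41 and -2.97), phosphofructokinase had Pfkm and Pfkp higher (0.32 and 1.92) and Pfkl not called. In carbamoyl phosphate synthesis, enolase and nitric oxide synthase 1 member each was called, Cps1, Eno3 (2.40) and Nos2 (-0.75). Levels of 2 genes are not set against each other here, since probe sets differ in brightness.

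**Figure D5:**
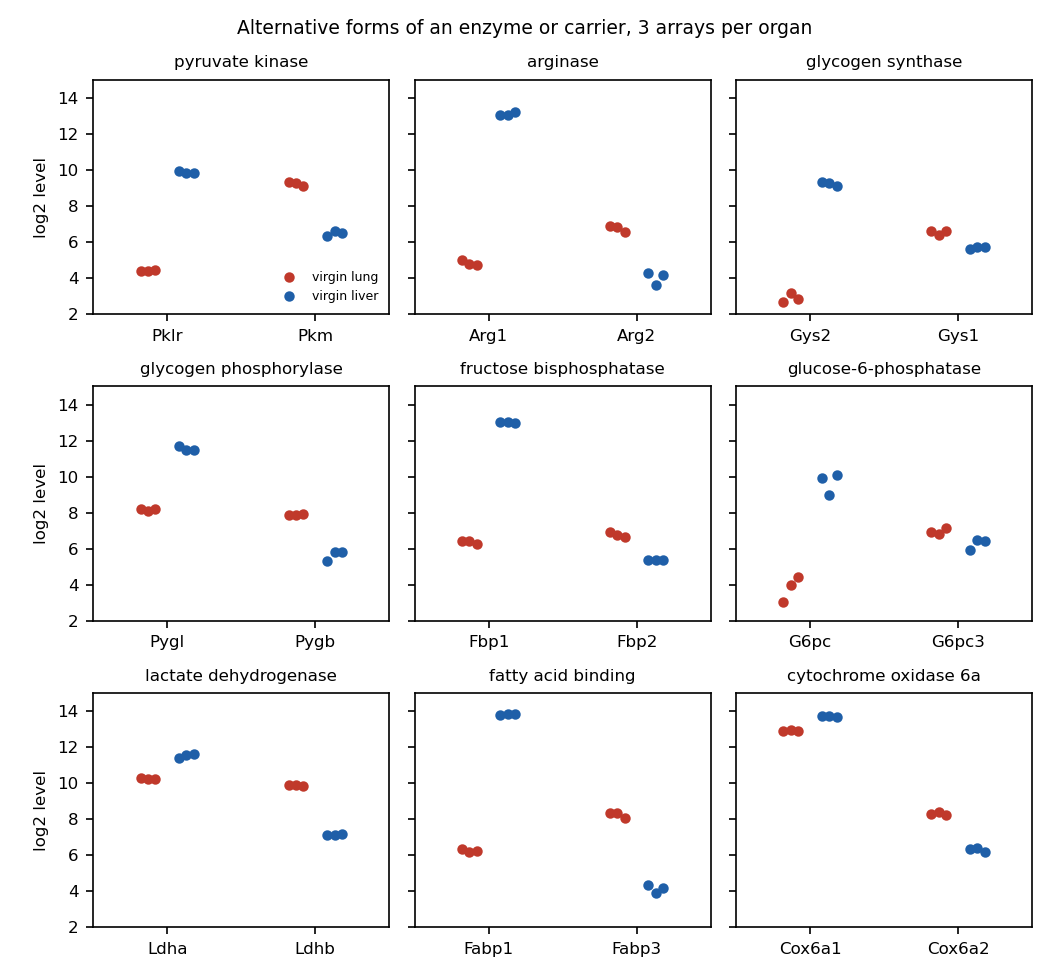
Log2 level on each of the 3 virgin lung and 3 virgin liver arrays of 18 genes that encode alternative forms of 9 enzymatic steps or carriers, with both forms of a step next to each other. The pairs were picked from sets with calls both ways, so their opposite directions were fixed by that choice. In each pair the form on the left was higher in liver and the form on the right higher in lung. The 3 arrays of an organ do not overlap those of the other for any of the 18 genes. Over all genes the groups did not overlap for 73.2%. Levels of different genes cannot be compared on this scale.

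Transcription factors of each organ were mostly higher in it. Of 26 factors of lung development 24 were higher in lung and 12 at least 8-fold (median 2.77), with Tbx4 at 5.05, Irx3 at 5.02 and Elf5 at 4.90. Nkx2-1, a defining factor of lung epithelium, was called but dim, with 4.89, 4.59 and 4.68 in lung and 3.97, 4.04 and 3.99 in liver. Of 27 hepatocyte factors 21 were lower in lung and 11 at least 8-fold: the bile acid receptor Nr1h4 had -5.82, Foxa3 -5.70 and Hnf4a -5.65. Factors of the FOXA family, shared by endodermal organs, differed among themselves: Foxa2 was alike (8.28, 8.39 and 8.22 in lung, 8.34, 8.27 and 8.26 in liver) and Foxa1 was higher in lung (1.64). Dbp, a clock output factor, was alike at 10.43 and 10.43. Among 33 Hox genes, which record position along the body axis, Hoxa5 alone was at least 8-fold apart (9.79, 9.60 and 9.56 in lung, 5.08, 4.99 and 5.33 in liver), followed by Hoxb3 (1.91) and Hoxb5 (1.88), and 23 were dim in both. Of 44 nuclear receptors 8 were at least 8-fold higher in liver, including the oestrogen receptor Esr1 (-4.88), and 0 in lung.

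Junction, channel and carrier families held members of each organ by the 8-fold rule, apart from keratins and ATP-binding cassette transporters. Among 11 aquaporins Aqp5 and Aqp4 (6.68 and 3.35) were at least 8-fold higher in lung and Aqp8, Aqp9 and Aqp11 (-7.42, -6.60 and -3.52) in liver. Among 20 claudins Cldn18, Cldn5, Cldn7 and Cldn10 were so in lung, and Cldn2 and Cldn1 (-5.92 and -3.31) in liver. Of 44 keratins 3 were at least 8-fold higher in lung (Krt7, Krt19 and Krt80) and none in liver, with Krt18, a keratin of simple epithelia, at -1.45. Of 80 potassium channel genes 4 were at least 8-fold higher in lung, led by Kcnj15 (5.33) and Kcne2 (4.45), and 1 in liver, Kcnn2 (-4.0). The shares at 8-fold, 6.82% of keratins and 6.25% of potassium channels, were near the 6.84% of all genes. Of 309 solute carriers 34 were at least 8-fold higher in liver and 16 in lung, and of 45 ATP-binding cassette transporters 6 in liver, led by the bile salt pump Abcb11 (-7.19), and 0 in lung. Of the serpins 12 of 39 were at least 8-fold higher in liver, led by Serpinc1 and Serpina1c, and 3 in lung, of the intracellular clade B: Serpinb6b (5.23), Serpinb1a (3.22) and Serpinb9 (3.06). Among 33 chemokines Cxcl9, induced by interferon, was the only one at least 8-fold higher in liver (3.73, 3.79 and 3.94 in lung, 7.98, 8.71 and 8.63 in liver).

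Some genes were measured as alike. For 4907 genes (27%) the 95% interval of the difference lay wholly within 0.5 of 0, and 2345 of these were above the dim level in both organs. Of the 5692 genes not called 4384 were alike by this rule and 1308 were undecided. The 10 brightest alike genes were Tpt1, Eef1a1, B2m, Akr1a1, Rpl38, Rpl41, Serf2, Ifitm3, Rps2 and Oaz1, of which Tpt1, Rpl38, Akr1a1 and Rps2 were called all the same, with differences of 0.30, 0.30, 0.18 and -0.20. The sign of Rps2 turned under other scalings (0.08 with quantile normalization, 0.10 with centring on housekeeping complexes), that of Tpt1 without suffixed probe sets (-0.30), and that of B2m under quantile normalization (0.25). Eef1a1, an elongation factor, had levels of 13.64 and 13.49, with an interval of the difference from -0.02 to 0.31. B2m, the light chain of class I molecules, had 13.46 and 13.55, with an interval from -0.28 to 0.10.

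Housekeeping complexes shifted as groups, by small amounts. Of 81 genes of the respiratory chain and ATP synthase 71 were lower in lung and 5 higher (median -0.82). The exceptions were tissue forms of cytochrome oxidase: Cox6b2 (3.19), Cox8b (2.56), Cox6a2 (1.99), Cox4i2 (1.71) and Cox7a1 (1.55), while their general partners Cox4i1, Cox6a1 and Cox7a2 were lower (-0.52, -0.77 and -0.41). Of 49 ribosomal protein genes 35 were higher in lung (median 0.46) and of 39 proteasome genes 27 were lower (median -0.38). Centring on these same 3 complexes left 60 respiratory genes lower and 43 ribosomal genes higher but only 9 proteasome genes lower, with 6 higher. Psmb9 and Psmb8, the immunoproteasome subunits, were the only 2 of the proteasome called higher in lung as deposited (0.53 and 0.39).

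Genes high in liver formed more runs of neighbours in the genome than genes high in lung. In RefSeq order 18 runs of 3 or more neighbouring measured genes were all at least 8-fold higher in liver, with 75 genes in all, and 5 runs with 15 genes were so in lung, among 18144 genes placed. The longest runs were 8 Cyp2c genes on chromosome 19 from Cyp2c29 to Cyp2c70, with differences of 5.07 to 9.39 in size, and 7 Ugt2 genes on chromosome 5 (4.59 to 9.49). They were followed by 6 retinol and hydroxysteroid dehydrogenase genes on chromosome 10 from Rdh9 to Hsd17b6 (3.9 to 9.89), by 5 Akr1c genes on chromosome 13 and by 5 genes on chromosome 3 from Hsd3b5 to Hao2. Other runs held plasma protein genes, such as Ahsg, Fetub, Hrg and Kng1 on chromosome 16 and Apoa1, Apoc3, Apoa4 and Apoa5 on chromosome 9. The lung runs were S100a6, S100a8 and S100a9 and Pifo, Chia1 and Chil3 on chromosome 3, Gulp1, Col3a1 and Col5a2 on chromosome 1, Serpinb1a, Serpinb6b and Serpinb9 on chromosome 13 and Sema3c, Cd36 and Gnai1 on chromosome 5. Neighbours in such families are copies of one another, so shared probe sequence can add to a run.

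The same organs in pregnant mice gave a difference from other arrays. The estimate of the spread and the choice of probe set per gene rest on all 12 arrays, and whether these were normalized together is not given in the sources used here. There 71.5% of all genes were called and 6.94% at 8-fold. Of the 12501 genes called in virgin mice 10856 were called the same way and 95 the opposite way there, and of the 1245 genes with an 8-fold difference 1093 met the 8-fold rule the same way. The difference between organs itself differed between virgin and pregnant mice for 1221 genes (6.71%, limma interaction, adjusted p under 0.05), 194 of them among those 1245.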

How the data were processed

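RNA from lung and liver of virgin mice was measured on 3 arrays per organ, each a pool of 2 mice. The deposited values are log2 probe set levels that the authors made with RMA of the affy package, per the submitters' processing notes. Versions, and which arrays were normalized together, are not given in the sources used here. RMA forces arrays normalized together to one distribution of probe signals, so an overall shift between organs would not be seen. Of 45101 probe sets 34945 had a single gene symbol. For each of the 18193 genes the probe set with the highest mean over all arrays was kept.

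A model of 4 group means over all 12 arrays was fitted with limma 3.58.1 in R 4.3.3, with Benjamini-Hochberg adjustment at 0.05 and, as a second rule, an 8-fold difference. The model was tested on simulated data. Samples were grouped by their labels. The number of arrays limits the precision, and there are no detection calls. P-values set a difference against the spread between pools, which was estimated over all 4 groups and moderated across genes by limma. Alternatives covered scaling, choice of probe set, filters, weights, variance models and leaving out each array. Same-numbered pools of the 2 organs were not paired in the model, and the labels do not say whether they came from the same mice. Their deviations correlated at -0.04, 0.06 and 0.11. Those of pools with unlike numbers correlated at -0.11 to 0.06, so these values cannot decide it.

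Members and lists were chosen with earlier results of these data known. Named genes were the 12 largest differences each way, up to 6 called members of a list in the direction of its median, 3 the other way and 2 not called, all members of lists of up to 20 genes and of enzyme sets, the 10 brightest alike genes and the 5 longest runs. Apoa4, Apoa5, Apoe, Cd36, Chia1, Col5a2, F13b, F2, F3, Fgfr4, Foxj1, Gnai1, Gulp1, Hrg, Pifo, Plat, Procr, Pros1, S100a6 and Tfpi fall outside this and were named after their values were seen. Proteins were not used here.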

Additional observations from a re-analysis of the deposited data

Results flagged for a closer look

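The difference between lung and liver of 42 named genes was not the same in virgin and pregnant mice (limma interaction over 12 arrays, adjusted p under 0.05). The values here are the virgin difference minus the pregnant one, on the log2 scale. Vwf was 4.59 higher in lung of virgin mice and 2.25 in pregnant mice (adjusted p = 1.33e-05), and C9 was at -9.07 and -6.73 (adjusted p = 9.26e-06). The organs lay farther apart in virgin mice for 26 genes, with values of Acaca -0.66, Alas2 1.42, Aqp8 -1.27, Aqp9 -0.45, C9 -2.34, Cd36 1.51, Cela2a -1.06, Chil3 1.49, Cox7a2 -0.53, Cyp2c29 -0.99, Fasn -1.52, Glul -0.53, Hsd3b5 -0.92, Ighm -1.15, Kcnn2 -0.83, Lpl 1.30, Mfap4 0.95, Pkhd1 -0.92, Pklr -0.79, Ppbp 1.60, Pygl -0.59, Rgs5 -0.74, Rsph1 1.62, Slc10a1 -1.38, Slc2a2 -0.81 and Vwf 2.34. Among these 26 genes Cox7a2 had the opposite order in the 2 states, with -0.41 in virgin and 0.12 in pregnant mice. The organs lay closer in virgin mice for 16 genes, with values of C8a 0.90, Cox7a1 -1.93, Cyp2b10 -1.42, Cyp2f2 -0.81, Cyp4b1 -0.72, Foxa1 -0.89, Foxa3 1.31, Gsta4 -0.65, Ldha 0.77, Lox -1.83, Lum 0.68, Pdia6 1.04, Plet1 -0.79, Pros1 -0.51, Sema3c -0.82 and Tmem100 -0.74. Over all genes 1221 passed this test. Adjusted p-values of the named genes ran from 9.26e-06 to 0.0415.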

How the results depend on the processing

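Leaving out 1 array at a time gave 11526 to 12109 called genes (5967 to 6105 higher, 5559 to 6004 lower in lung), 1238 to 1270 at 8-fold (666 to 690 and 569 to 580), 4120 to 4427 alike and 29 to 32 of 69 lists with a median above 0, against 31 with all. With the pool number as a block 6181 genes were higher and 6155 lower, and the 6 virgin arrays alone kept 6148 of the 6240 higher and 6071 of the 6261 lower calls. Quantile normalization gave 5722 higher and 6512 lower. Without genes below log2 5 there were 4011 lower and 2452 alike genes, and centring on the housekeeping complexes gave 3105 lower and 47 lists above 0. All probe sets, none merged, gave 21276 calls (10438 higher, 10838 lower) and 10715 alike. The mean of all probe sets gave 435 genes at least 8-fold higher and 507 lower in lung, which turns the order of the counts. At 4-fold there were 2304 genes (1413 and 891), at 32-fold 412 (117 and 295), and 1121 were alike within 0.3. List medians or named genes changed sign as follows, and the cause was not tested. Without suffixed probe sets the values were basal cells 0.13, skeletal muscle 0.007, Slc2a1 -0.36, Slc2a3 -0.28, Tnnt2 -0.22 and Tpt1 -0.29. With quantile normalization the values were basal cells 0.047, T cells -0.037, skeletal muscle 0.005, B2m 0.25 and Rps2 0.079. With centring on ribosomal, proteasome and respiratory genes the values were basal cells 0.27, lymphatic 0.087, mast cells 0.17, B cells 0.095, skeletal muscle 0.26, adipocytes 0.24, thymus 0.12, endoplasmic reticulum 0.089, Hox genes 0.11, aquaporins 0.005, claudins 0.11, keratins 0.009, potassium channels 0.13, solute carriers 0.10, Sox factors 0.089, nuclear receptors 0.030 and Rps2 0.10. With a term for both liver pools 3 basal cells 0.051. Without genes below log2 5 the values were lymphatic 1.58, mast cells 2.91, B cells 0.030, skeletal muscle 0.75, adipocytes 0.015, Hox genes 0.81 and Sox factors 2.67. With the mean of all probe sets the values were T cells -0.056, mucins -0.018, Fox factors -0.034 and Slc2a1 -0.047. With median centring the values were T cells -0.023, erythroid -0.054, mucins -0.093, Fox factors -0.13 and chemokines -0.075. With 1 array left out the medians that turned were skeletal muscle 0.005 without lung pool 3, mucins -0.022 without liver pool 2, Fox factors -0.043 without lung pool 2 and Fox factors -0.002 without liver pool 2. Over all arrays left out in turn these medians ran over skeletal muscle -0.107 to 0.005, mucins -0.022 to 0.09, Fox factors -0.043 to 0.1. No other list median, and no other named gene called as deposited or under the alternative, changed sign. Signal over background limits the dim probe sets.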

Other observations

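Further gene families had members at least 8-fold higher in lung and none in liver. Some of the members named here are also on the cell type lists. Of 20 integrins, receptors that bind cells to matrix, 13 were higher in lung and 3 at least 8-fold, among them Itga8 and Itga6 (3.37), the partner of epithelial laminin binding. Of 19 Sox factors 5 were at least 8-fold higher in lung: Sox4 (4.93), Sox2 of airway epithelium (4.18) and the endothelial factors Sox17, Sox7 and Sox18 (4.33, 4.32 and 3.45). Of 10 mucins Muc1, a mucin of cell surfaces, was the only one at least 8-fold apart, with 11.05, 10.84 and 10.90 in lung and 5.51, 5.55 and 5.45 in liver.

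Genes of folding and secretion in the endoplasmic reticulum leaned toward liver as deposited (median -0.21), but not with centring on the housekeeping complexes (0.089). Of 28 genes 15 were lower in lung and 4 higher, with the disulfide isomerases Pdia4 and Pdia6 at -1.42 and -1.05 and the vesicle gene Tmed10 at 1.03. Fasn, the fatty acid synthase listed among surfactant genes, was lower in lung (-1.52), while Lpcat1, which remodels surfactant lipid, was higher (4.51).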
